A study of Mus musculus with 6 samples.

Results

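The genes described here carry the adrenergic signal of the heart through cyclic AMP (cAMP) and beside it. Of 9 genes chosen to represent this pathway, 7 had at least 1 probe set with their symbol as its only annotation: the receptor Adra1b, the adenylyl cyclases Adcy5 and Adcy6, the receptor kinase Grk5, the phosphodiesterases Pde3a and Pde4d, and the protein kinase A subunit Prkar1a. They are 7 of the 18194 genes named on the array and accounted for 16 of its 45037 probe sets. The expression of the receptors Adrb1 and Adra1a was not analysed here, and Adrb1 entered only the search of promoter windows. Of the 16 probe sets, 10 were bright enough to be tested and 6 were dim, which here means a mean signal over the 6 arrays below 49.01 arbitrary units, the median of all probe sets.

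Expression was measured on 6 Affymetrix arrays in male mice labelled C57BL/6J, with 2 arrays in each of 3 groups. Mice of the high FASN line carried a transgene for fatty acid synthase (FASN), which builds palmitate, at a high cardiac level. Mice of the low FASN line carried it at a low level, and in both lines the alpha-MHC promoter, active in heart muscle cells, drove it. The B6 control mice were age-matched, with no age given, and the tissue label of all 6 samples, controls included, reads transgenic heart, so the groups rest on the titles. Since 1 line stands for each FASN level, FASN level and line cannot be told apart. Whether the 2 arrays of a group were made from separate hearts is not stated, and the p-values therefore measure the spread between arrays, which may be technical.

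Noradrenaline and adrenaline reach the heart muscle cell through beta receptors, which act through the stimulatory G protein on adenylyl cyclase, and through alpha-1 receptors, which act through Gq on phospholipase C. The cAMP that the cyclases make releases the catalytic subunits of protein kinase A from their regulatory subunits, and the kinase then phosphorylates calcium channels, phospholamban and sarcomere proteins so that the heart beats harder and faster. Receptor kinases and arrestins shut the receptors down, and phosphodiesterases break cAMP down close to where it acts.

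The signals of Fasn and of heart muscle genes followed the labels. The Fasn probe set read 2268 and 2104 in high-FASN hearts, 462 and 481 in low-FASN hearts, and 213 and 187 in B6 hearts. Whether it reads the transgene, the gene of the mouse itself or both is not known here. Means of the fat hormone gene Adipoq had the same order (3333, 1679.5 and 118 in high-FASN, low-FASN and B6 hearts). The part of fat in the Fasn signal was not tested. All 10 heart muscle markers, Myh6 and Tnnt2 among them, were bright, with means over the 6 arrays between 10346 and 31517. The deposited columns share the same trimmed mean. Among the control probe sets of the array 58 were bright, and their median log2 difference was -0.014 for the high line against control, -0.25 for the low line against control, and 0.20 between the lines.

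The sequences bear on a motif through which cAMP acts on transcription. The cAMP response element, TGACGTCA, binds CREB, a factor that protein kinase A phosphorylates, and TGACG is its core, which reads CGTCA on the opposite strand. Of the 9 genes 6 had promoter windows from RefSeq (build GRCm38.p6), 12 windows in all, and the 250 bases before each start were searched on both strands. The full element lay in 1 of the 12 windows, that of a Prkar1a start, and the core, which the full element contains, in 4 of the 12 windows, all 4 from Prkar1a or Adrb1, with a pair of overlapping Prkar1a windows sharing a site. Among all 32851 RefSeq promoter windows, 1.5% held the full element and 17.8% the core. The Prkar1a element began 49 bases before the start in question and lies on chromosome 11, plus strand, within the span of the gene, at chr11:109650889-109650918 with its neighbouring bases. The windows of Pde4d, the member with the smallest p-values against control, and of the first start of Adra1b, the receptor among the members measured, held neither motif. Their bases just before the start are shown 5′ to 3′ for chr13:108653927-108654176 (plus strand) and chr11:43901238-43901487 (minus strand). Capitals mark the element.
Prkar1a: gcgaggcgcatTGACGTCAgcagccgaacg
Pde4d: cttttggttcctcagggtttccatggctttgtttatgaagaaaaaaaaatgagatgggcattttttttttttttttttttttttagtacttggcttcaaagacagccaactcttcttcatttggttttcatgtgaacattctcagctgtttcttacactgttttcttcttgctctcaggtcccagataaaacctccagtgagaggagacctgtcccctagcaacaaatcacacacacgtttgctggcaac
Adra1b: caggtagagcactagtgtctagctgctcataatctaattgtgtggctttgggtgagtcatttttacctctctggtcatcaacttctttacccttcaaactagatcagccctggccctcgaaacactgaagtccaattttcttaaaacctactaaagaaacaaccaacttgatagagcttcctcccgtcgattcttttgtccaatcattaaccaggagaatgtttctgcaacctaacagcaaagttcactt
A gene such as Pde4d has several starts and only 1 window was at hand for it, and which start feeds the probe set is not known here.

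Adra1b (chromosome 11, 43774605 to 43901250, GRCm38.p6 as for all genes here), the alpha-1B receptor, which couples to Gq rather than to adenylyl cyclase, was higher in high-FASN hearts than in both other groups. It read 136 and 138 in high-FASN hearts, 79.7 and 82.3 in low-FASN hearts, and 68.5 and 87.8 in B6 hearts, with both high-line arrays above the other 4. The low-line values lay between the 2 control values. Differences are given on the scale of log2(signal + 16) with their SE. Adra1b rose by 0.71 ± 0.20 in high-FASN hearts against control (limma, adjusted p = 0.0413), was higher by 0.66 ± 0.20 than in low-FASN hearts (adjusted p = 0.0454), and differed by 0.050 between the low line and control with a 95% interval of 0.44 to either side (adjusted p = 0.884). Both calls stood close to the threshold: leaving out any 1 of the 6 arrays ended them, with adjusted p between 0.0707 and 0.197 for the rise over control and between 0.0509 and 0.173 for the difference between the lines. Quantile normalization (adjusted p = 0.0534), no filter (0.106) and a fit of only the 4 arrays compared (0.0663) also ended the first. The replicate block was among the settings that ended the second (adjusted p = 0.0527). Each of these calls passed in 6 of 15 alternative settings.

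The adenylyl cyclases, the enzymes that make cAMP, went different ways. Adcy5 (chromosome 16, 35154494 to 35305743), with Adcy6 the main cyclase of adult heart muscle, rose in both lines on its brightest probe set, 1455296_at, which read 487 and 547 in high-FASN hearts, 448 and 431 in low-FASN hearts, and 365 and 330.2 in B6 hearts. The 3 groups did not overlap and their order followed the order of Fasn. The rise was 0.55 ± 0.10 on the log2 scale in high-FASN hearts (limma, adjusted p = 0.00772) and 0.33 ± 0.10 in low-FASN hearts (adjusted p = 0.0469), and the lines differed by 0.23 with a 95% interval of 0.23 to either side (adjusted p = 0.166). The rise in high-FASN hearts did not pass without control array 2 (adjusted p = 0.0661). The rise in low-FASN hearts did not pass with any of the low-line or control arrays left out (differences of 0.26 to 0.40). Nor did it pass with quantile normalization (adjusted p = 0.118), median centring (0.062), cyclic loess (0.0885), no filter (0.08), no intensity trend (0.0894) or the replicate block (0.0557). A further Adcy5 probe set, 1447696_x_at, did not show the rise: it read 293 and 333 in high-FASN hearts, 200.5 and 275 in low-FASN hearts, and 237 and 374 in B6 hearts, with log2 differences from control of 0.063 and -0.32 (adjusted p = 0.876 and 0.301). Its control arrays lay further apart than any pair of group means. The remaining 2 Adcy5 probe sets were dim, between 1.19 and 48.1.

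Adcy6 (chromosome 15, 98589978 to 98610287) read 1769 and 1742 in high-FASN hearts, 1483 and 1406 in low-FASN hearts, and 1624 and 1585 in B6 hearts. The groups did not overlap, but neither line differed from control past the threshold: the differences were 0.13 ± 0.061 in high-FASN hearts (limma, adjusted p = 0.202) and -0.15 ± 0.061 in low-FASN hearts (adjusted p = 0.108). Between the lines, which lay on opposite sides of control, Adcy6 was higher by 0.28 ± 0.061 in high-FASN hearts (adjusted p = 0.0134). This call did not hold without low-line array 1 (adjusted p = 0.0566) or low-line array 2 (adjusted p = 0.117).

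Grk5 (chromosome 19, 60889560 to 61095968), a kinase that phosphorylates active receptors and so prepares their shutdown, had 2 tested probe sets and no call. The brighter, 1449514_at, read 938 and 1009 in high-FASN hearts, 803 and 909 in low-FASN hearts, and 1022 and 1013 in B6 hearts. Its differences from control were -0.064 ± 0.082 in high-FASN hearts (limma, adjusted p = 0.660) and -0.25 ± 0.082 in low-FASN hearts (adjusted p = 0.055). The low-line difference crossed the threshold in 8 of the 16 settings, among them quantile normalization (adjusted p = 0.0494), median centring (adjusted p = 0.046) and cyclic loess (adjusted p = 0.048). It also did so without either high-line array (adjusted p = 0.0403 and 0.0408), while leaving out a low-line or control array did not make it pass. The dimmer, 1436672_at, read 200 and 167 in high-FASN hearts, 180 and 172 in low-FASN hearts, and 110 and 224 in B6 hearts, so that the control arrays spanned the other 4.

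Pde4d (chromosome 13, 108654177 to 109955969), a cAMP-specific phosphodiesterase that trims cAMP near the calcium release channel, was lower than in control in both lines and lowest in low-FASN hearts. Its bright probe set, 1435280_at, read 1486 and 1511 in high-FASN hearts, 1115 and 1151 in low-FASN hearts, and 1959 and 1866 in B6 hearts. The ranges of the 3 groups did not overlap. Pde4d fell by 0.35 ± 0.062 in high-FASN hearts (limma, adjusted p = 0.0062). In low-FASN hearts it fell by 0.75 ± 0.062 (adjusted p = 5.73e-05). That is a mean signal 21.6% below control in high-FASN hearts and 40.8% below control in low-FASN hearts. The lines also differed from each other, by 0.40 ± 0.062 (adjusted p = 0.00286, higher in high-FASN hearts), so the larger fall went with the lower FASN level. The fall in low-FASN hearts passed under all 16 alternative settings (highest adjusted p = 0.00942), whereas the fall in high-FASN hearts did not pass without control array 1 (adjusted p = 0.0584). The second Pde4d probe set, 1459311_at, was dim: it read 30.8 and 57.0 in high-FASN hearts, 15.3 and 2.40 in low-FASN hearts, and 14.8 and 1.82 in B6 hearts. It thus gave no lower value in high-FASN hearts than in control, below the level tested.

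Pde3a (chromosome 6, 141249269 to 141506862), the phosphodiesterase of heart muscle that drugs such as milrinone inhibit, was lower in low-FASN hearts than in both other groups. Probe set 1450284_at read 167 and 150.2 in high-FASN hearts, 57.0 and 87.7 in low-FASN hearts, and 158 and 127 in B6 hearts. The high line and control overlapped, and both lay above the low line. Pde3a fell by 0.86 ± 0.22 in low-FASN hearts against control (limma, adjusted p = 0.0181) and was higher by 1.004 ± 0.22 in high-FASN than in low-FASN hearts (adjusted p = 0.0123). Between the high line and control the difference was 0.14, with a 95% interval of 0.49 to either side (adjusted p = 0.709). Without low-line array 1 neither call held (adjusted p = 0.124 against control and 0.0893 between the lines); nor did the call against control without control array 1 (adjusted p = 0.123) or the call between the lines without high-line array 1 (adjusted p = 0.0515). The other 2 Pde3a probe sets were dim, with values between 2.97 and 52.9.

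Prkar1a (chromosome 11, 109649023 to 109669663) encodes the type I alpha regulatory subunit that holds protein kinase A inactive until cAMP binds. Its brightest probe set, 1452032_at, read 6476 and 6484 in high-FASN hearts, 6504 and 6458 in low-FASN hearts, and 5950 and 5555 in B6 hearts. Both lines lay above control and overlapped each other. The difference from control was 0.17 ± 0.051 in both FASN groups, with limma adjusted p = 0.054 in high-FASN hearts (0.0125 with quantile normalization and 0.032 with cyclic loess) and 0.0367 in low-FASN hearts, and between the lines it was within 0.12 to either side of 0 (95% interval). A second probe set, 1425550_a_at, read 2065 and 2032 in high-FASN hearts, 1805 and 2018 in low-FASN hearts, and 2096 and 2133 in B6 hearts, with differences from control of -0.045 and -0.15 (adjusted p = 0.705 and 0.146). The probe sets of this gene thus pointed in different directions. The call in low-FASN hearts did not hold with any low-line or control array left out (differences of 0.12 to 0.22). Nor did it hold with median centring (adjusted p = 0.141), no filter (0.0848) or no intensity trend (0.203). The third probe set, 1447635_at, was dim.

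**Figure D1:**
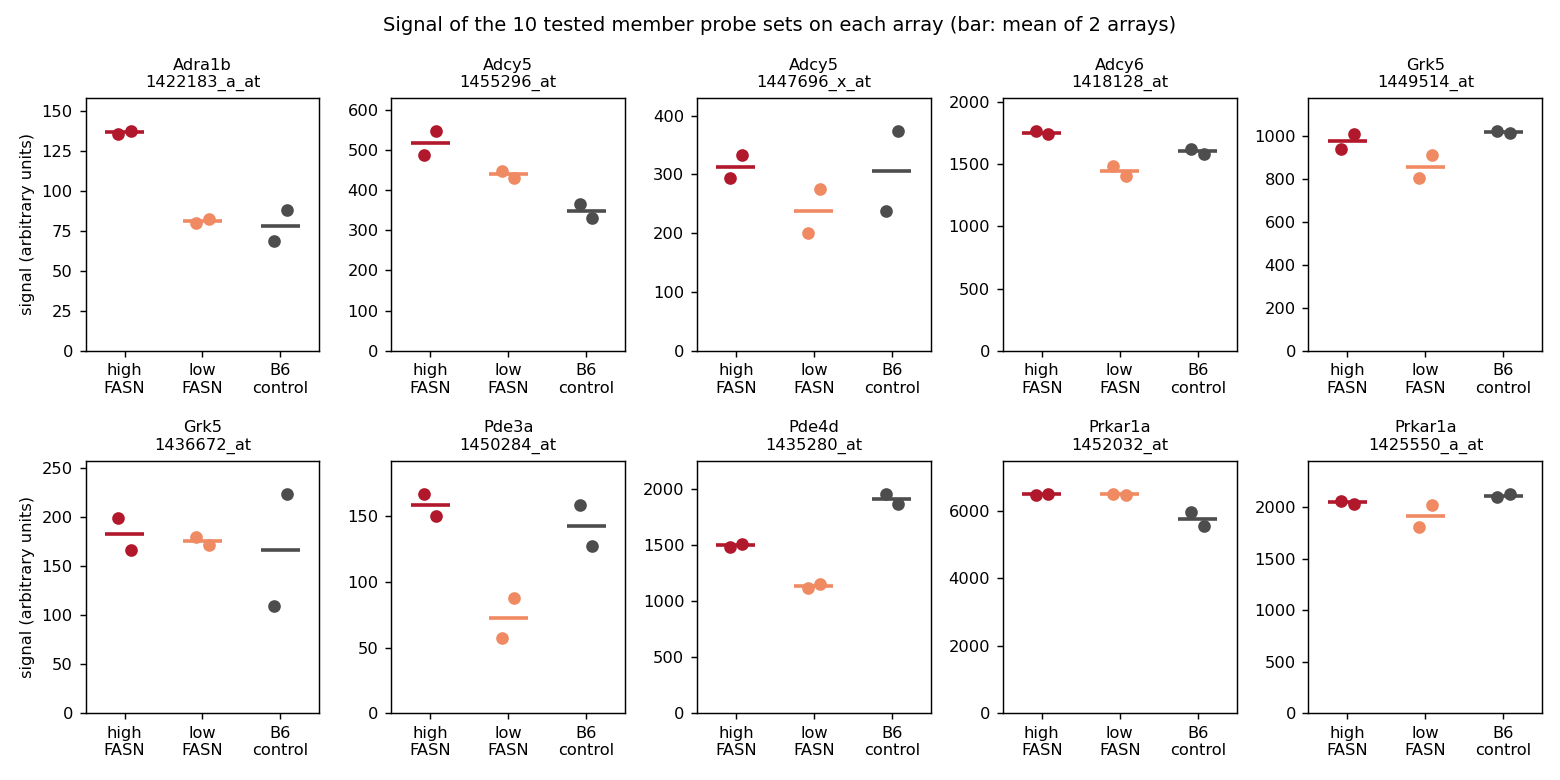
Signal in arbitrary units (y axis, from 0) of each of the 10 tested probe sets in the high FASN, low FASN and B6 control arrays (x axis); points are single arrays and bars the mean of 2. The Pde4d points of the high line lie at 1486 and 1511, those of the low line at 1115 and 1151 and those of control at 1959 and 1866, with no overlap, while the Pde3a points of the low line lie at 57.0 and 87.7 below both other groups.

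**Figure D2:**
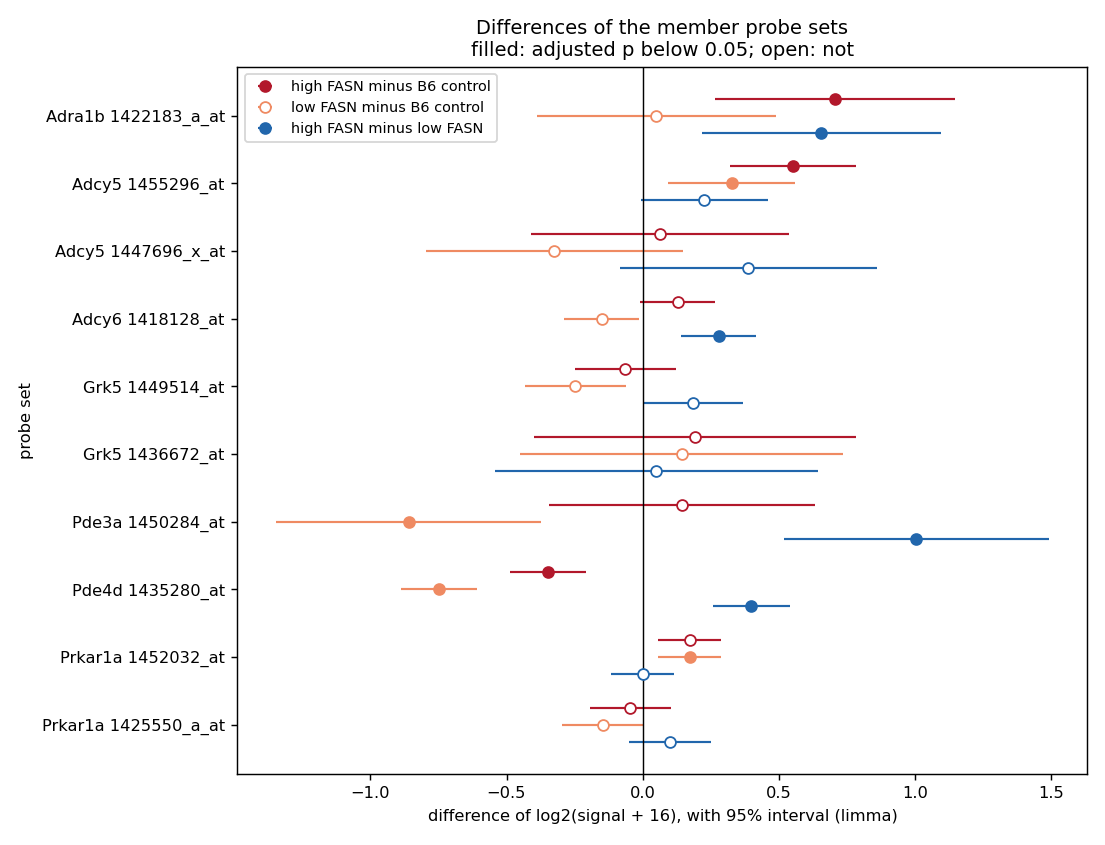
Difference of log2(signal + 16) (x axis) for each tested probe set (y axis) in 3 comparisons, high FASN minus B6 control, low FASN minus B6 control and high FASN minus low FASN, with 95% intervals from limma; filled points had an adjusted p below 0.05. Pde4d lies left of 0 in both comparisons with control, at -0.35 and -0.75, and the 4 filled points between the lines (Adra1b, Adcy6, Pde3a and Pde4d) all lie right of 0.

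Counted over the 10 tested probe sets, 2 rose and 1 fell in high-FASN hearts, where 14.4% of all 22519 tested probe sets were called, 8.22% higher and 6.2% lower. In low-FASN hearts 2 rose and 2 fell, against 24.4% called among all tested, 13.6% higher and 10.8% lower. Between the lines 4 were higher and 0 lower in high-FASN hearts, against 18.5% called among all tested, 9.64% higher and 8.85% lower. The median difference of the 10 was 0.14 in high-FASN hearts against control, -0.15 in low-FASN hearts against control and 0.25 between the lines, while the medians over all tested probe sets were 0.037, 0.019 and 0.0052. Ranges that did not overlap were common: 7 of the 10 in each comparison with control, where all tested probe sets gave 56.3% for the high line and 65.1% for the low line, and 8 of the 10 between the lines, all of them higher in high-FASN hearts, against 59.3% of all tested in either direction. With 10 probe sets of 7 genes these counts are a description of the set. The 4 calls between the lines were the same 4 with quantile normalization, with median centring and with cyclic loess; without low-line array 1, 1 of them remained, 2 remained without low-line array 2 or high-line array 1, and 3 with any of the other 3 arrays left out. Both comparisons with control use the same 2 control arrays.

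Heart muscle markers moved the same way as these 4 probe sets. The summed signal of the 10 markers was 254700 to 282600 in high-FASN hearts, 201900 to 206200 in low-FASN hearts and 223200 to 229300 in control, and 9 of the 10 were higher in high-FASN than in low-FASN hearts (0 lower). In bulk tissue, fewer cells of a type and less RNA per cell cannot be told apart, and the part of the heart muscle content, and of the shift of the control probe sets, in the differences between the lines was not tested. Against control, 7 of the 10 markers rose and 0 fell in high-FASN hearts, whereas in low-FASN hearts 0 rose and 3 fell. Pde4d was lower than control in both lines. Airway markers stood apart in high-FASN hearts, as did Adra1b. Their summed signals were 2826 and 3096 in high-FASN hearts, 265.6 and 264.4 in low-FASN hearts, and 117 and 199 in B6 hearts. The secretory genes Scgb1a1, Bpifa1 and Scgb3a2 rose in high-FASN hearts, the lung surfactant gene Sftpc did not pass, and Sftpd and Foxj1 were dim. Bpifa1 (means of 1180, 10.1 and 20.7 in high-FASN, low-FASN and B6 hearts) was bright enough to be tested only through the high-line arrays. The same held for Scgb3a2 (513, 24.3 and 13.3), so neither rise is separate support. Scgb1a1 also rose by 2.81 in low-FASN hearts, where Adra1b did not pass. The part of the airway markers in the Adra1b difference was not tested. Fibroblast markers lay above control in both lines, as did the brightest probe sets of Adcy5 and Prkar1a but not the second tested ones. They summed to 43780 and 44720 in high-FASN hearts, 47040 and 48830 in low-FASN hearts, and 31880 and 32370 in B6 hearts. In high-FASN hearts 6 of 8 rose and 0 fell, and in low-FASN hearts 7 rose and 0 fell. The fibroblast sum was highest in the low line, whereas Adcy5 was highest in the high line. Sums of smooth muscle, endothelial and adipocyte markers also lay above control in both lines. The part of these lists was not tested.

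**Figure D3:**
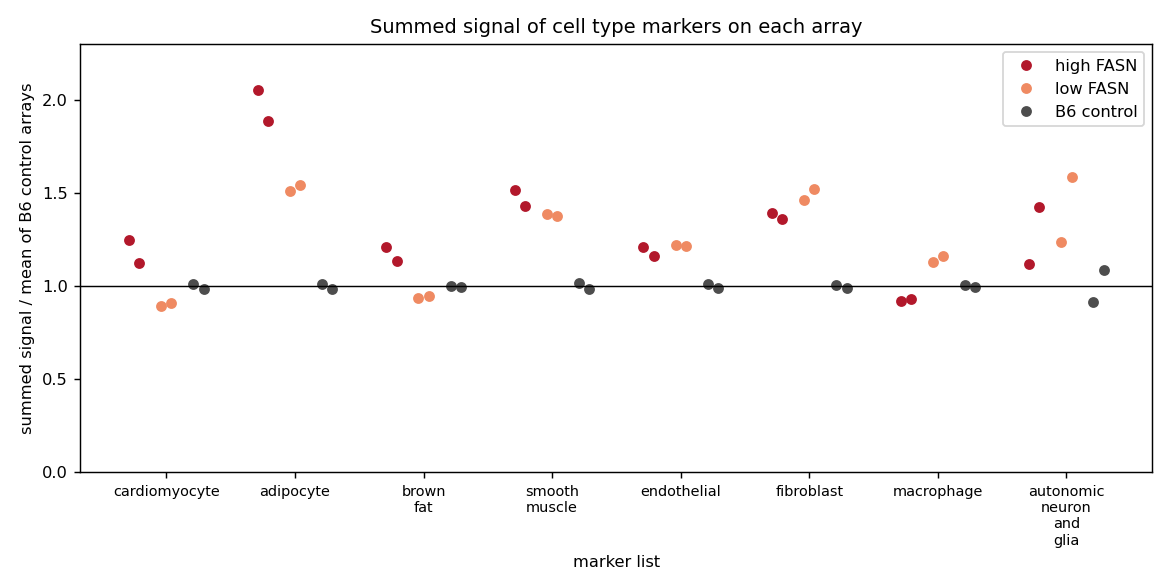
Summed signal of each cell type marker list except airway (x axis), divided by the mean of the 2 B6 control arrays (y axis, from 0). Points are single arrays of the high FASN, low FASN and B6 control groups. The airway list, not drawn, stood at 17.9 and 19.6 in high-FASN hearts and 1.68 and 1.67 in low-FASN hearts. Heart muscle markers stand at 1.25 and 1.13 in high-FASN hearts and at 0.892 and 0.911 in low-FASN hearts, and adipocyte markers at 2.05 and 1.89 in high-FASN hearts and 1.51 and 1.54 in low-FASN hearts.

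The wider pathway was followed through 10 further lists of 97 genes, taken with 1 probe set per gene, the brightest; 81 genes had a probe set and 76 were tested. Of the 76, 15 rose and 5 fell in high-FASN hearts, 11 rose and 11 fell in low-FASN hearts, and 14 were higher and 3 lower in high-FASN than in low-FASN hearts. Of all tested probe sets, 8.22% were higher and 6.2% lower in high-FASN hearts, the shares to read these and the following list counts against. They were 13.6% and 10.8% in low-FASN hearts, and 9.64% and 8.85% between the lines. The low-line counts and the count of falls in high-FASN hearts lie near or not far above them. The sets are unlike, since the lists take the brightest probe set per gene and brighter probe sets were called more often. With the filter at the 75th percentile, 2934 of 11260 were called in high-FASN hearts (1607 higher, 1327 lower). In low-FASN hearts 4410 of 11260 were called (2259 higher, 2151 lower). The median differences of the 76 genes were 0.082 in high-FASN hearts, 0.021 in low-FASN hearts and 0.028 between the lines. Of 8 other adrenergic and inhibitory receptors only Adra2c had a probe set, and it was dim.

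The largest difference of the named pathway genes was that of Prkar2b, the type II beta regulatory subunit of protein kinase A, which is abundant in fat. It read 333 and 311 in high-FASN hearts, 209.5 and 184 in low-FASN hearts, and a dim 19.9 and 29.01 in B6 hearts. Prkar2b rose by 3.07 ± 0.18 in high-FASN hearts and by 2.40 ± 0.18 in low-FASN hearts (limma, adjusted p = 1.05e-05 and 3.42e-05), and all 3 of its probe sets rose in both lines. Since control was dim, the size of the rise is uncertain. The brightest probe set reached the level tested only through the arrays of the lines, so its rise is not separate support. Of the 3 kinase inhibitor genes, Pkig and Pkia fell and Pkib did not pass (-0.34 and -0.35, adjusted p = 0.509 and 0.450). Pkig fell by 0.24 in high-FASN hearts and 0.42 in low-FASN hearts, and Pkia by 0.17 and 0.25, although a dimmer Pkig probe set stood at 0.14 against control in high-FASN hearts, where it did not pass, and fell by 0.76 in low-FASN hearts. The Pkia fall in high-FASN hearts stood at the threshold (limma, adjusted p = 0.04996). The other Pkia probe set stood at -0.12 there and did not pass, and it fell by 0.43 in low-FASN hearts. Prkar2a, the type II alpha regulatory subunit, fell by 0.24 in low-FASN hearts. Of the 8 genes of this list 1 rose and 2 fell in high-FASN hearts, and 1 rose and 3 fell in low-FASN hearts. The catalytic subunit genes Prkaca and Prkacb did not pass in either line (log2 differences of -0.060 and 0.31 in high-FASN hearts, -0.083 and 0.019 in low-FASN hearts).

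Pde3b, the phosphodiesterase through which insulin acts in fat cells, rose as well. It read 734 and 882 in high-FASN hearts, 489 and 554 in low-FASN hearts, and 367 and 422 in B6 hearts, a rise of 1.003 in high-FASN hearts and 0.39 in low-FASN hearts (limma, adjusted p = 0.000703 and 0.039). Of 14 tested phosphodiesterase genes beside the members, 4 rose and 1 fell in high-FASN hearts (8.22% and 6.2% of all tested) and 3 rose and 3 fell in low-FASN hearts (13.6% and 10.8% of all tested). The 1 that fell in high-FASN hearts was Pde7a, by 0.74 there and by 0.65 in low-FASN hearts (limma, adjusted p = 0.00155 and 0.00169). Pde4a and Pde7b also fell in low-FASN hearts, by 0.73 and 0.37. Pde5a rose by 0.81 in high-FASN hearts and 0.86 in low-FASN hearts. Each of these values is from the brightest probe set. Pde1c, which calcium and calmodulin activate, rose by 0.37 in high-FASN hearts and 0.62 in low-FASN hearts on the brightest of 6 tested probe sets, the only one of the 6 to be called. Pde2a, which cGMP stimulates, rose by 0.57 in high-FASN hearts and differed by 0.16 in low-FASN hearts (adjusted p = 0.134). Adipocyte markers moved with Prkar2b and Pde3b: 5 of 7 tested rose and 0 fell in both FASN groups. Of the 5, Retn, Pck1 and Cidec had control means of 44.3, 16.4 and 30.5. They were bright enough to be tested only through the arrays of the lines, so their rises are not separate support. The summed signal over 8 genes was 40660 to 44240 in high-FASN hearts, 32560 to 33300 in low-FASN hearts and 21280 to 21820 in control. Most of the control sum was Fabp4 (mean of 19945), which did not pass in either line (0.19 and 0.036). Much of the rise of the sum was Car3 (means of 14934, 10039 and 1158.5 in high-FASN, low-FASN and B6 hearts). The fat hormone gene Adipoq read 3485 and 3181 in high-FASN hearts, 1678 and 1681 in low-FASN hearts, and 138 and 97.5 in B6 hearts, and Lep was dim. The part of fat in these differences was not tested.

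Among the G proteins and their regulators, 4 of 12 rose and 1 fell in high-FASN hearts (14.4% of all tested were called), and 3 rose and 0 fell in low-FASN hearts, near the 24.4% called among all tested. Gnai1, an inhibitory alpha subunit that lowers cyclase activity, read 913 and 831 in high-FASN hearts, 699 and 623 in low-FASN hearts, and 450.3 and 439 in B6 hearts, and rose by 0.95 and 0.55 (limma, adjusted p = 0.000228 and 0.00239). The smallest difference among its 3 probe sets was 0.19 in high-FASN hearts and 0.27 in low-FASN hearts. The 1 that fell was Gnai2, another inhibitory alpha subunit, by 0.25 in high-FASN hearts. Gnb2, a beta subunit, rose by 0.44 in high-FASN hearts, and Rgs5, a regulator typical of pericytes and vascular smooth muscle, rose by 0.30 and 0.27. Smooth muscle markers moved with Rgs5 (4 of 7 rose and 0 fell in high-FASN hearts; 4 rose and 2 fell in low-FASN hearts), with a summed signal of 17380 to 18410 in high-FASN hearts, 16680 to 16850 in low-FASN hearts and 11940 to 12330 in control, and their part was not tested. The stimulatory subunit gene Gnas did not pass, with differences of 0.098 and -0.052.

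Of the other cyclases, Adcy7, known from immune cells, rose by 0.45 in high-FASN hearts and 0.91 in low-FASN hearts, and both of its tested probe sets were called in each comparison. Adcy9 fell by 0.40 in low-FASN hearts. In the list of 6 tested cyclases 1 rose and 0 fell in high-FASN hearts, and 1 rose and 1 fell in low-FASN hearts. Macrophage markers summed to 11410 to 11500 in high-FASN hearts, 13970 to 14390 in low-FASN hearts and 12310 to 12440 in control. Of the 7 markers 0 rose and 2 fell in high-FASN hearts, and 2 rose and 1 fell in low-FASN hearts. In high-FASN hearts, where Adcy7 rose, their sum thus lay below control. The part of the macrophage markers in the Adcy7 difference was not tested. None of the 4 tested receptor kinases and arrestins was called by limma in any comparison, and their adjusted p-values lay between 0.0794 and 0.998; Grk3 in low-FASN hearts alone had an unadjusted p below 0.05.

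**Figure D4:**
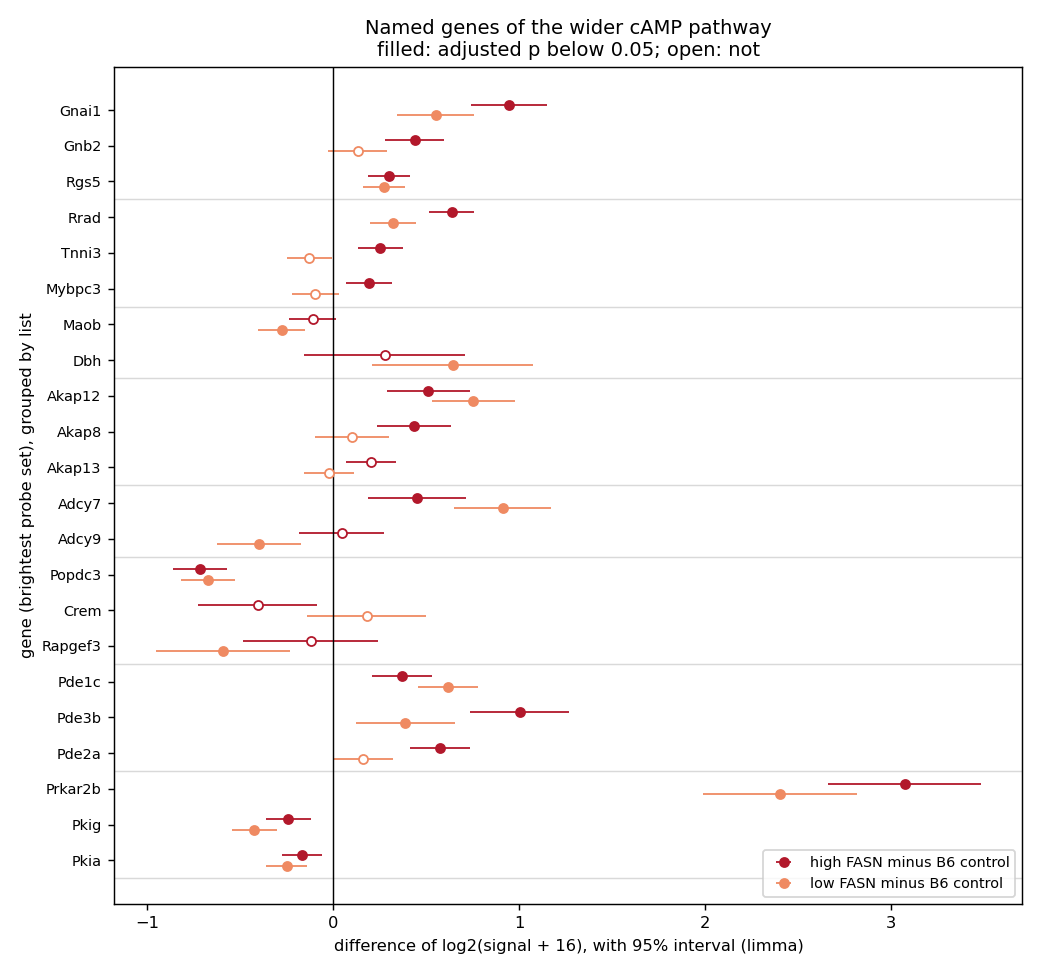
Difference of log2(signal + 16) from B6 control (x axis) for the 22 named genes of the wider pathway (y axis, grouped by list), high FASN above low FASN within each gene, with 95% intervals from limma; filled points had an adjusted p below 0.05. Prkar2b stands far to the right at 3.07 in high-FASN hearts and 2.40 in low-FASN hearts, and Popdc3 lies left of 0 in both lines at -0.72 and -0.67.

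Further down the pathway, Popdc3, a membrane protein of the Popeye family that binds cAMP, read 1030 and 1029 in high-FASN hearts, 1056 and 1069 in low-FASN hearts, and 1662 and 1739 in B6 hearts. It fell by 0.72 and 0.67 (limma, adjusted p = 0.000135 and 0.000121), and the lines differed by -0.045 with adjusted p = 0.674. Its relatives Popdc1 and Popdc2 did not pass in either line. Rapgef3, the exchange factor Epac1 that cAMP activates without protein kinase A, fell by 0.59 in low-FASN hearts on its brightest probe set, the only one of 4 tested to be called. Crem, a cAMP-responsive transcription factor, was lower by 0.59 in high-FASN than in low-FASN hearts on its brightest probe set, while its other tested probe set stood at 0.075 between the lines and fell by 0.58 in low-FASN hearts against control. Of the 10 tested effectors and CREB factors 0 rose and 1 fell in high-FASN hearts, and 0 rose and 2 fell in low-FASN hearts.

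Of 10 tested anchoring proteins, which hold protein kinase A near its targets, 2 rose and 0 fell in high-FASN hearts (14.4% of all tested were called), and 1 rose and 0 fell in low-FASN hearts, below the 24.4% called among all tested. Akap12 rose by 0.51 in high-FASN hearts and 0.75 in low-FASN hearts, and Akap8 by 0.44 in high-FASN hearts, where its other probe set stood at -0.26. Akap13 was higher by 0.23 in high-FASN than in low-FASN hearts on its brightest probe set. Of 8 tested protein kinase A substrates 3 rose and 0 fell in high-FASN hearts, and 1 rose and 1 fell in low-FASN hearts. Rrad, a small G protein that restrains the calcium channel until it is phosphorylated, rose by 0.64 in high-FASN hearts and 0.32 in low-FASN hearts, and the troponin gene Tnni3 and the myosin-binding protein gene Mybpc3 rose by 0.26 and 0.19 in high-FASN hearts. The 1 that fell was Cacna1c, the pore of the L-type calcium channel, by 0.31 in low-FASN hearts. Phospholamban (Pln) did not pass, with differences of 0.17 and -0.012. Of 4 tested genes of catecholamine handling, taken at their brightest probe set, 0 were called in high-FASN hearts. In low-FASN hearts Dbh, which makes noradrenaline in nerve endings, rose by 0.64 on that probe set, and 2 of its 3 probe sets were called there and 1 of the 3 in high-FASN hearts (differences of 0.28 to 0.70), while Maob, which degrades amines, fell by 0.28. The 5 nerve and glia markers summed to 380.4 and 484.8 in high-FASN hearts, 421.7 and 540.5 in low-FASN hearts, and 311 and 370 in B6 hearts, and Th, the first enzyme of catecholamine synthesis, was dim.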

How the data were processed

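The authors deposited a single table with 1 linear signal intensity for each probe set on each array. GCOS made it, per the submitters' processing notes; version, algorithm and scaling target: not given in the sources used here. Trimmed column means (2% at each end) all came to 300.002, so the deposited scaling was kept. Detection calls and scanner files were not used here. Of 45101 probe sets 64 were controls. Symbols came from the platform annotation, with 34945 of 45037 probe sets carrying 1 symbol, and 0 were altered through Entrez identifiers and RefSeq.

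limma 3.58.1 in R 4.3.3 fitted 3 group means to log2(signal + 16) over all 6 arrays, with 3 residual degrees of freedom and, from eBayes with trend, a prior of 6.3. Probe sets were tested if their mean signal reached the median, which left 22519. Benjamini-Hochberg adjusted p-values (two-sided) cover all of these, and calls used 0.05. The offset of 16 understates changes of dim genes. An exact permutation test of 2 against 2 arrays cannot go below p = 0.333. The fitting script was tested on simulated data for high FASN against control. Of 50 planted log2 differences at each size, 5 were recovered at 0.25, 21 at 0.5, 34 at 1 and 50 at 2. It also made 17 unplanted calls among 22519 tested probe sets. Set beside the 5, 21, 34 and 50 recovered, these were a larger share of all calls than the threshold of 0.05 aims at. Small differences were thus often missed there, and false calls were more common than the threshold implies.

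The members, lists and alternatives were chosen with earlier results of these data known. Named pathway genes are up to 3 per list with the smallest p among those called in any comparison. Prkar2a, Gnai2, Cacna1c, Grk3, Pde7a, Pde4a, Pde7b, Pde5a and the pathway genes given as not passing were added after their values were seen. A rule on genes that resemble Adrb1 could not be applied. Figures used matplotlib 3.10.9.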

Additional observations from a re-analysis of the deposited data

Results flagged for a closer look

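The lines' differences from control were not equal, by the limma test between the lines, for 4 of the 10 tested probe sets. The difference, high minus low line on the log2 scale, was 0.66 for Adra1b, 0.28 for Adcy6, 1.004 for Pde3a and 0.40 for Pde4d. For Adcy6 and Pde3a the group means of the lines lay on opposite sides of control, for Adra1b both lay above it, and for Pde4d both lay below it. Of these 4 probe sets only that of Pde4d differed from control past the threshold for both lines. Adcy6 passed for neither line (limma, adjusted p = 0.202 for high FASN and 0.108 for low FASN). Pde3a did not pass for high FASN (limma, adjusted p = 0.709). Adra1b did not pass for low FASN (limma, adjusted p = 0.884), and its difference there turned to -0.018 with quantile normalization.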

How the results depend on the processing

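With 2 arrays a group most calls on single members were sensitive to the settings, and only the fall of Pde4d in the low line passed under all 16. Without the intensity trend the counts over all probe sets became 1228 (high line against control, 3246 as reported), 3595 (low line against control, 5494) and 1444 (between the lines, 4165), and the member counts 2 in the low line (4 as reported) and 1 between the lines (4). The trend-free limma fit ended the calls of Pde4d against control for the high line (0.0742, as adjusted p) and between the lines (0.0518), of Pde3a between the lines (0.0523) of Adcy6 between the lines (0.0941), and of Adcy5 (0.0894) and Prkar1a (0.203) in the low line. With no filter 1 member was called in the low line: Adcy5 (limma, adjusted p = 0.08), Pde3a (0.0501) and Prkar1a (0.0848) no longer passed there. The filter at the 75th percentile left 7 member probe sets, and 2 were called between the lines. Adra1b and Pde3a were below that filter and not tested, while the calls of Adcy6 and Pde4d held. Leaving out each array gave 1370 to 3505, 2925 to 6492 and 1556 to 4154 calls over all probe sets in the same order of comparisons, and 1 to 2, 1 to 5 and 1 to 3 member calls. Signs turned only among differences that had not passed. With quantile normalization these were Adcy5 1447696_x_at in the high line (-0.0090) and Adra1b in the low line (-0.018, and -0.0057 with cyclic loess). With arrays left out, Adcy5 1447696_x_at ran from -0.25 to 0.37 and Grk5 1436672_at from -0.27 to 0.66 in the high line, Adra1b from -0.098 to 0.20 and Grk5 1436672_at from -0.32 to 0.61 in the low line, and Grk5 1436672_at from -0.069 to 0.17 and Prkar1a 1452032_at from -0.0054 to 0.0048 between the lines. The cause was not tested. Replicate numbers did not pair the arrays (same-numbered deviations correlated at 0.0015 to 0.036). With the replicate block, the calls over all probe sets were 3376, 5646 and 4297, and the member calls 3, 4 and 3: the block ended Adra1b between the lines (limma, adjusted p = 0.0527) and Adcy5 in the low line (0.0557), made Grk5 1449514_at in the low line a call (0.0445), and changed no other member call. Median centring lowered the share of higher calls in the high line (1309 of 2731, against 1850 of 3246). Signal over background limits the dim probe sets: with no filter none of the 6 dim members passed limma in any comparison (lowest adjusted p = 0.127), and 2 differences had an unadjusted p below 0.05, both of the second Pde4d probe set, which was higher in the high line than in control and than in the low line.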

Other observations

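Over the 6 arrays, the genes whose log2 values, centred on control, lay closest to those of Pde4d were Sik3, Ninj1, Tmem201, Taf1a and Gabarapl1, with root mean square differences between 0.0394 and 0.0594. Pde4d was taken for this comparison after its values had been seen, and the likeness describes 6 arrays in 3 groups. In 6 of the 10 tested member probe sets the low line had the lowest group mean, in 4 the control and in 0 the high line, while over all tested probe sets the low line was lowest in 34.8%, the control in 38.0% and the high line in 27.3%.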
